A study of Mus musculus with 12 samples.

Results

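Mouse embryonic fibroblasts with the missense change R554Q in Keap1 were compared here with fibroblasts in which Keap1 was labelled wild type. The comparison used 6 of the 12 libraries of the series, chosen by their labels: 3 of the R554Q group and 3 of the wild-type group. Both groups came from embryos of embryonic day 13.5 to 14.5 that were homozygous for the CA-Keap1R554Q allele, and the groups differed in the virus. The R554Q cells received adenovirus carrying Cre recombinase, which switches the allele to the mutant form. The wild-type cells received an empty adenovirus, both at a multiplicity of infection of 500, in pyruvate-free medium with serum, with RNA taken 4 days later. The other 6 libraries of the series hold Nrf2 D29H fibroblasts with Cre virus and fibroblasts labelled Nrf2 KO with empty virus, and they are used only where the D29H effect is set beside that of R554Q and in 1 alternative fit of all 12 libraries. No group here combined cells without the mutant allele with Cre virus, so effects of Cre and of R554Q cannot be told apart. The labels do not say whether the libraries of a group came from separate embryos or cultures, so p-values measure only the spread between these libraries, which may be technical.

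KEAP1 is the adaptor that presents the transcription factor NRF2 (gene symbol Nfe2l2) to a ubiquitin ligase, and the residue changed in R554Q lies in its Kelch domain, the part that holds NRF2. When KEAP1 fails to hold NRF2, the factor accumulates, pairs with small MAF proteins and binds antioxidant response elements beside genes of glutathione, thioredoxin, NADPH and iron metabolism. Those targets are well described, and the account below turns to pathways and gene families beyond a chosen list of classic ones. A gene that is not on that list may still be a target of NRF2, also in iron metabolism.

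The 6 libraries held 19661193 to 22066822 counted reads. Mitochondrial genes took 0.807% to 1.09% of the reads and the 10 most abundant genes 6.03% to 6.46%. Fibroblast genes were abundant in every library: Col1a1, a fibrillar collagen, lay between 6745 and 8262 CPM (read counts scaled to library size by TMM) and the intermediate filament gene Vim between 3778 and 4399 CPM. Markers of other cell types varied in level. Epcam, an epithelial marker, reached at most 0.0993 CPM, the endothelial marker Pecam1 at most 0.222 CPM, the leukocyte marker Ptprc lay between 0.737 and 2.18 CPM, and the macrophage-list gene Lyz2 between 42.1 and 73.9 CPM. Keap1 itself was at 47.3, 49.2 and 42.4 CPM in R554Q and 45.5, 41.1 and 49.3 CPM in wild type, with an adjusted p of 0.872, and gene-level counts do not show which allele is transcribed. Nfe2l2 was at 41.1, 33.3 and 45.5 CPM against 41.7, 43.3 and 40.6 CPM, with an adjusted p of 0.718. R554Q replicate 3 stood apart from its group, with chi-square divided by its degrees of freedom at 13.3 and 23.6 against the other R554Q libraries, where the remaining pairs within a group had 4.95 to 8.54.

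Of 21916 listed genes, 14128 had enough reads to be tested. The quasi-likelihood test of edgeR called 533 genes higher in R554Q (3.77% of those tested) and 339 lower (2.4%), 6.17% in either direction, at a Benjamini-Hochberg adjusted p under 0.05. The median log2 fold change was 0.47 among genes called higher and -0.37 among genes called lower, so most changes were modest. Changes reached 2-fold or more in 78 genes called higher and in 9 called lower. Of 55 tested genes on a list of classic NRF2 targets, 37 were called higher and 0 lower, with a median log2 fold change of 0.80, against -0.00099 over all tested genes. That left 496 higher and 339 lower genes beyond the classic list, 56 and 9 of them changed at least 2-fold.

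**Figure D1:**
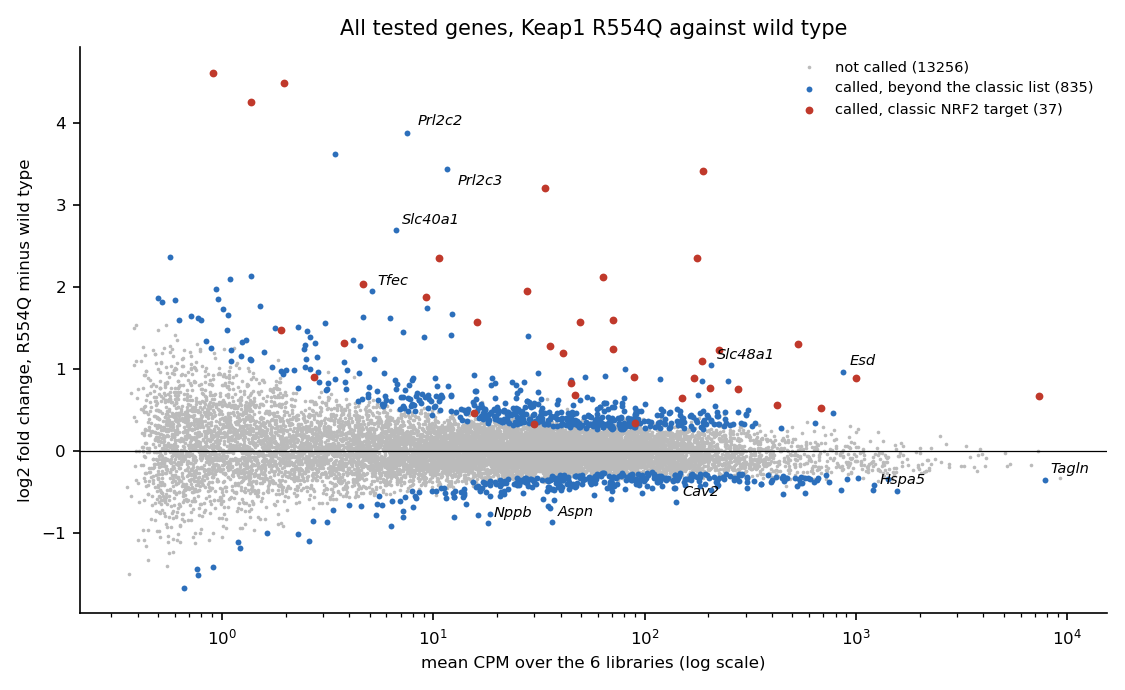
Log2 fold change of every tested gene (R554Q minus wild type, vertical axis) against its mean CPM over the 6 libraries (horizontal axis, log scale); red points are the 37 classic NRF2 targets called higher, blue points the other called genes and grey points genes that were not called. Rises reach further from 0 than falls, and among called genes beyond the classic list Prl2c2 lies highest, at 3.87.

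How many genes were called depended on which libraries entered the fit. With 1 library left out at a time, the number of genes called higher was 186, 273 and 1530 without R554Q replicates 1, 2 and 3, and 283, 193 and 302 without wild-type replicates 1, 2 and 3. The number called lower was 52, 137 and 1342 without R554Q replicates 1, 2 and 3, and 109, 48 and 128 without wild-type replicates 1, 2 and 3. Genes called in all 6 of these fits numbered 155 higher (1.1% of those tested), of which 122 were beyond the classic list, and 27 lower (0.191%). These are the steadiest members of the comparison, and unless a sentence says otherwise each gene named below with a fold change was called in all 6 fits.

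**Figure D2:**
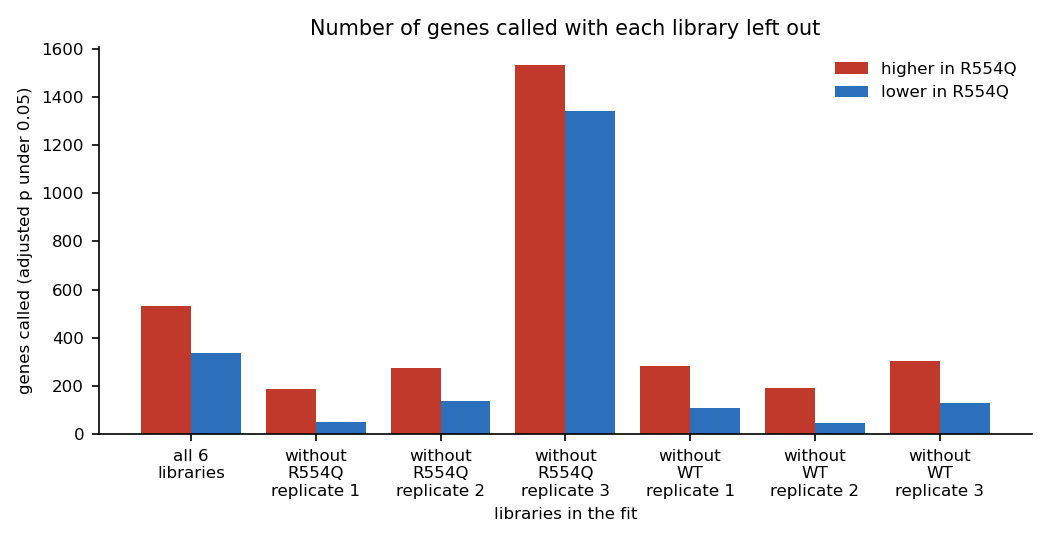
Number of genes called higher (red) and lower (blue) in R554Q at an adjusted p under 0.05, with all 6 libraries and with each library left out in turn. Without R554Q replicate 3 the calls rise to 1530 and 1342, and without any other library they lie below the 533 and 339 of the full set.

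Among protein-coding genes beyond the classic list with a mean of at least 100 reads, the largest rises were in 2 prolactin-family genes. Prl2c2 and Prl2c3 encode proliferins, secreted relatives of prolactin that are known from placenta and from growth-stimulated fibroblast lines. Prl2c2 (chromosome 13, 12996132 to 13005383, minus strand, GRCm38) was at 14.3, 13.7 and 14.1 CPM in the R554Q libraries and 0.923, 1.19 and 0.730 CPM in the wild-type libraries. Every R554Q library was far above every wild-type library, where 14% of all tested genes had R554Q above wild type by any gap without overlap, and the difference on the log2 scale was 3.87 (SE 0.18, adjusted p 6.2e-11). Prl2c3 (chromosome 13, 12790822 to 12800078, minus strand) was at 23.0, 18.5 and 22.1 CPM in R554Q and 1.98, 1.79 and 2.08 CPM in wild type (log2 fold change 3.44, SE 0.15, adjusted p 3.4e-11). These neighbouring genes are near-identical copies, so how reads were split between them is uncertain and their values are best read together. Of the 27 genes on the prolactin list, 5 were tested, 2 were called higher (40.0%, against 3.77% of all tested genes) and 0 lower, with a median log2 fold change of 0.43. With no filter on low counts 3 were called higher and the median was 1.26. Over so few genes the median moved to 1.24 and 0.991 without wild-type replicates 1 and 3, to 0.286 without R554Q replicate 2 and to 0.676 with GC and length offsets, and the 2 calls stood in each of those fits. Another low-abundance gene, Hsd3b6, a steroid dehydrogenase chosen here after its values were seen, rose from 0.369, 0.596 and 0.573 CPM to 6.63, 5.14 and 7.17 CPM (log2 fold change 3.61, SE 0.26, adjusted p 3.8e-08).

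Iron and heme transport was the next group. Slc40a1 encodes ferroportin, the only known iron exporter of mammalian cells. It was at 11.8, 10.3 and 12.5 CPM in R554Q and 1.80, 2.43 and 1.09 CPM in wild type, with no overlap (log2 fold change 2.69, SE 0.20, adjusted p 7.1e-08). Slc48a1, which encodes the heme transporter HRG1 of lysosomal membranes, doubled from 125, 139 and 138 CPM to 295, 271 and 265 CPM. The difference on the log2 scale was 1.05 (SE 0.08, adjusted p 1.3e-07), with part of the gene overlapping Hdac7 on the opposite strand. Alas1, the first enzyme of heme synthesis, rose by (log2 fold change 0.46, SE 0.09, adjusted p 0.00662). Ppox, a later enzyme of the same pathway, had (log2 fold change 0.34, SE 0.10, adjusted p 0.0463) and was called in 1 of the 6 fits with a library left out. In all, 4 of 29 tested genes on the iron and heme list were called higher and 0 lower, which is 13.8% against 3.77% of all tested genes. Across the fits with 1 library left out the count was 3 to 6, the 6 without R554Q replicate 3, and the list's median of 0.07 was close to 0: the rise rested on a few of its members.

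The metallothionein genes Mt1 and Mt3 were higher. Mt1, whose protein binds zinc and copper, was at 112, 104 and 105 CPM in R554Q and 50.9, 53.5 and 56.7 CPM in wild type (log2 fold change 1.00, SE 0.08, adjusted p 1.9e-07). Mt3 was scarce, at 1.473, 1.508 and 1.502 CPM against 0.415, 0.496 and 0.208 CPM, and rose by 1.97 (log2; SE 0.36, adjusted p 0.00345). They were the 2 genes called higher of 20 tested on the metal and zinc list, with 0 called lower and a median of -0.01, where 3.77% of all tested genes were called higher. The higher count was 2 to 4 with a library left out, the 4 without R554Q replicate 3.

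Several enzymes and transporters of small molecules were among the largest rises. Esd, an esterase that hydrolyses S-formylglutathione, was the most abundant of the 20: it stood at 1232, 1078 and 1129 CPM in R554Q and 582, 605 and 571 CPM in wild type. The groups were well apart (log2 fold change 0.97, SE 0.08, adjusted p 6.8e-07). Ampd3, an AMP deaminase, rose from 6.04, 6.20 and 5.26 CPM to 17.3, 19.2 and 19.5 CPM (log2 fold change 1.67, SE 0.12, adjusted p 4.7e-08), and Rnf141 lies across part of it on the opposite strand. The orphan transporter gene Slc22a23 had 13.4, 15.2 and 14.2 CPM against 4.71, 4.12 and 4.01 CPM (log2 fold change 1.74, SE 0.13, adjusted p 8.9e-08). Gbe1, the branching enzyme of glycogen synthesis, had 17.9, 14.99 and 20.1 CPM against 6.32, 7.10 and 6.41 CPM (1.42, SE 0.13, adjusted p 1.3e-06). In each of these the lowest R554Q library exceeded the highest wild-type library.

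Dehydrogenases of alcohols and aldehydes that are not on the classic list were also among the genes called higher. Adh7, an alcohol dehydrogenase that also acts on retinol, was at 13.0, 11.1 and 15.3 CPM in R554Q and 4.43, 5.51 and 5.06 CPM in wild type (log2 fold change 1.39, SE 0.15, adjusted p 8.6e-06). Sord, sorbitol dehydrogenase, rose by 0.55 on the log2 scale (SE 0.10, adjusted p 0.00404). Aldh1a7, Aldh2, Aldh16a1 and Dcxr were called too, at 0.87, 0.32, 0.35 and 0.31, but in only 1 or 2 of the 6 fits with a library left out. On the list of aldehyde and aldo-keto reductases beyond the classic genes, 6 of 31 tested were called higher (19.4%, against 3.77% of all tested genes) and 0 lower. With single libraries left out the count was 2 without R554Q replicate 1, wild-type replicate 1 or wild-type replicate 3, 3 without wild-type replicate 2, 4 without R554Q replicate 2 and 7 without R554Q replicate 3. The xenobiotic receptor gene Ahr and the cytochrome P450 gene Cyp1b1 were the 2 called genes of 21 tested on the cytochrome P450 list. Both were higher (9.52%, against 3.77% of all tested genes), while Cyp1a1, Ahrr and Tiparp, also on that list, were not among the called genes. Ahr was at 32.4, 28.6 and 29.5 CPM against 15.4, 17.0 and 18.3 CPM (log2 fold change 0.84, SE 0.10, adjusted p 4.3e-05), and Cyp1b1 at 241, 235 and 291 CPM against 167, 181 and 177 CPM (0.55, SE 0.09, adjusted p 0.00127).

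Among secreted signals, Kitl, the ligand of the receptor KIT, was at 36.8, 37.7 and 49.3 CPM in R554Q and 18.5, 23.8 and 21.5 CPM in wild type. The groups did not overlap and the difference on the log2 scale was 0.96 (SE 0.12, adjusted p 6.9e-05). Bmp6, a bone morphogenetic protein with a known part in iron sensing, rose from 2.45, 2.38 and 2.19 CPM to 7.51, 4.75 and 5.77 CPM (log2 fold change 1.35, SE 0.20, adjusted p 0.000468). Sfrp2, a secreted binder of Wnt proteins, rose from 3.599, 3.18 and 5.16 CPM to 7.12, 8.56 and 7.32 CPM (0.95, SE 0.18, adjusted p 0.00404). Gdf15, a secreted stress factor of the TGF-beta superfamily, had 11.1, 10.1 and 9.50 CPM against 5.81, 4.96 and 6.15 CPM (log2 fold change 0.86, SE 0.14, adjusted p 0.000958).

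Procr, Ednrb and Notch3, which encode receptors, were higher in R554Q. Procr, the endothelial protein C receptor, was at 40.6, 37.0 and 43.9 CPM in R554Q and 13.98, 14.05 and 18.1 CPM in wild type (log2 fold change 1.399, SE 0.11, adjusted p 1.6e-07). Ednrb, the endothelin B receptor, had 8.35, 7.67 and 12.2 CPM against 3.32, 1.99 and 3.86 CPM (log2 fold change 1.62, SE 0.22, adjusted p 0.000155); its R554Q replicate 3 was the highest of the 6 libraries. The Notch receptor gene Notch3 had 29.8, 32.9 and 30.9 CPM against 17.1, 17.0 and 19.4 CPM (log2 fold change 0.81, SE 0.10, adjusted p 4.2e-05). On the Wnt and Notch list 4 of 47 tested genes were called higher (8.51%, against 3.77% of all tested genes), namely Sfrp2, Notch3, Wnt4 (0.50, SE 0.10, adjusted p 0.00582) and Notch1, and 1 lower, Dkk2, an inhibitor of Wnt receptors. Notch1 (0.33) and Dkk2 (-0.35) were called in 1 and 2 of the 6 fits. The list held 3 or 4 higher genes in 5 of those fits and 12 without R554Q replicate 3. On the TGF-beta and BMP list 3 of 47 were higher (Bmp6, Smad6 and Smad3, the last 2 at 0.45 and 0.26 and called in 3 and 1 fits) and 1 lower, the BMP antagonist Grem1, at -0.33 and called in 1 fit; these shares, 6.38% and 2.13%, stand beside 3.77% and 2.4% of all tested genes. With a library left out this list held 7 higher and 8 lower genes without R554Q replicate 3, and 1 or 2 higher and 0 lower otherwise.

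Tfec, Cebpb, Tshz1 and Arnt2, which encode transcription factors, were among the 20 largest rises. Tfec, a member of the MiT family, was at 9.33, 7.54 and 7.46 CPM in R554Q and 2.26, 1.94 and 2.08 CPM in wild type (log2 fold change 1.95, SE 0.17, adjusted p 8.4e-07). Cebpb, a leucine zipper factor of stress and fat cell differentiation, had 78.5, 98.5 and 77.1 CPM against 46.7, 36.6 and 52.3 CPM (0.91, SE 0.12, adjusted p 0.000115). The zinc finger gene Tshz1 had 66.3, 69.6 and 68.4 CPM against 36.8, 35.8 and 37.1 CPM (0.90, SE 0.08, adjusted p 6.9e-07), and Arnt2, a partner of bHLH-PAS factors, 18.5, 22.3 and 20.2 CPM against 10.4, 11.96 and 9.75 CPM (0.93, SE 0.12, adjusted p 6.9e-05). All 4 had a gap between the groups, and part of Cebpb overlaps Tmem189. Among regulators of the NRF2 system itself, 2 of 17 tested genes were called higher (11.8%, against 3.77% of all tested genes) and 0 lower. With GC and length offsets 1 was called higher. Mafg, a small MAF partner of NRF2, was at 142, 162 and 126 CPM against 109, 97.1 and 100.5 CPM (0.49, SE 0.09, adjusted p 0.00478). Sirt7 lies across part of Mafg on the same strand. The other gene was Rxra, a nuclear receptor, at 0.39 (called in 4 of 6 fits). Fosl2 (0.45, SE 0.08, adjusted p 0.00279) and Fosl1 (0.51, called in 5 of 6 fits), which encode AP-1 subunits, were the higher genes of 37 tested on the MAPK and immediate early list. Spry4, a feedback inhibitor of that pathway, was the lower one at -0.35, called in 1 fit. These shares, 5.41% and 2.7%, are near the 3.77% and 2.4% of all tested genes. Without R554Q replicate 3 that list held 7 higher and 3 lower.

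The core of the antioxidant response element, TGACNNNGC, was searched on both strands in RefSeq promoter windows (GRCm38.p6) reaching from 250 bases before to 50 bases after each gene's start. It overlaps the AP-1 site in part of its letters. Of 10108 tested genes with a window, 17.0% held it, as did 34.5% of 29 classic targets called higher. Among genes beyond the classic list the shares were 17.1% of 35 called higher by at least 2-fold and 19.1% of 350 called higher by less, both near the share of all tested genes. Of the 20 largest rises 15 had a window and 3 of these held a match, namely Tfec, Procr and Cebpb; a match is a description of letters and not of a bound site, and elements further away lie outside these windows. The upstream stretches of Procr (chr2:155751002-155751101, plus strand) and Tfec (chr6:16898450-16898549, minus strand) are shown because both genes rose and hold the core, which is in capitals (for Tfec as its reverse complement).
Procr: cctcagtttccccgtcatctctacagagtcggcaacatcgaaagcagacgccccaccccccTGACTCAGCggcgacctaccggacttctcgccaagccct
Tfec: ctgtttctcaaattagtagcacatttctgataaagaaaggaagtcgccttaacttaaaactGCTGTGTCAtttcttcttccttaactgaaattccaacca

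The serpin and complement list moved in both directions, with 10 tested genes above 0, 15 below and a median of -0.06. Serpinb1a, an inhibitor of neutrophil proteases, was at 6.83, 5.54 and 6.69 CPM in R554Q and 2.58, 2.53 and 2.71 CPM in wild type (log2 fold change 1.28, SE 0.17, adjusted p 0.000154). Serpinb9, a granzyme B inhibitor, rose by 0.57 (SE 0.11, adjusted p 0.00404), and Serpina3n and Serpinb9b by 0.59 and 0.43, called in 5 and 3 of the 6 fits. With C1qtnf6 (0.36, called in 2 fits) they made 5 of 25 tested genes on the list (the share of all tested genes was 3.77%), while 2 were called lower (8.0%, against 2.4%): Serpinb2, at -1.01, and Cd59a, at -0.39, each called in 2 fits. With a library left out 3 to 5 were called higher and 0 to 4 lower, the 4 without R554Q replicate 3, and with GC and length offsets 4 and 0. The Serpinb genes are a cluster of similar copies, so the split of reads between them is uncertain. The 3 lists that follow had 1 call each, 4.0% to 4.35% of their tested genes, near the 3.77% of all tested genes called higher. Ddit4l, an inhibitor of mTOR signalling (0.71, SE 0.09, adjusted p 0.000115), was the 1 called gene of 24 tested p53 targets. Mest, an imprinted gene (0.68, SE 0.12, adjusted p 0.00256; Copg2 overlaps it on the opposite strand), was the 1 of 25 imprinted growth genes, and Gbp2 (0.77, called in 4 of 6 fits) the 1 of 23 interferon-stimulated genes. Without R554Q replicate 3 the p53 list held 4 higher and 3 lower genes, the imprinted list 5 higher and the interferon list 2 higher and 1 lower.

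**Figure D3:**
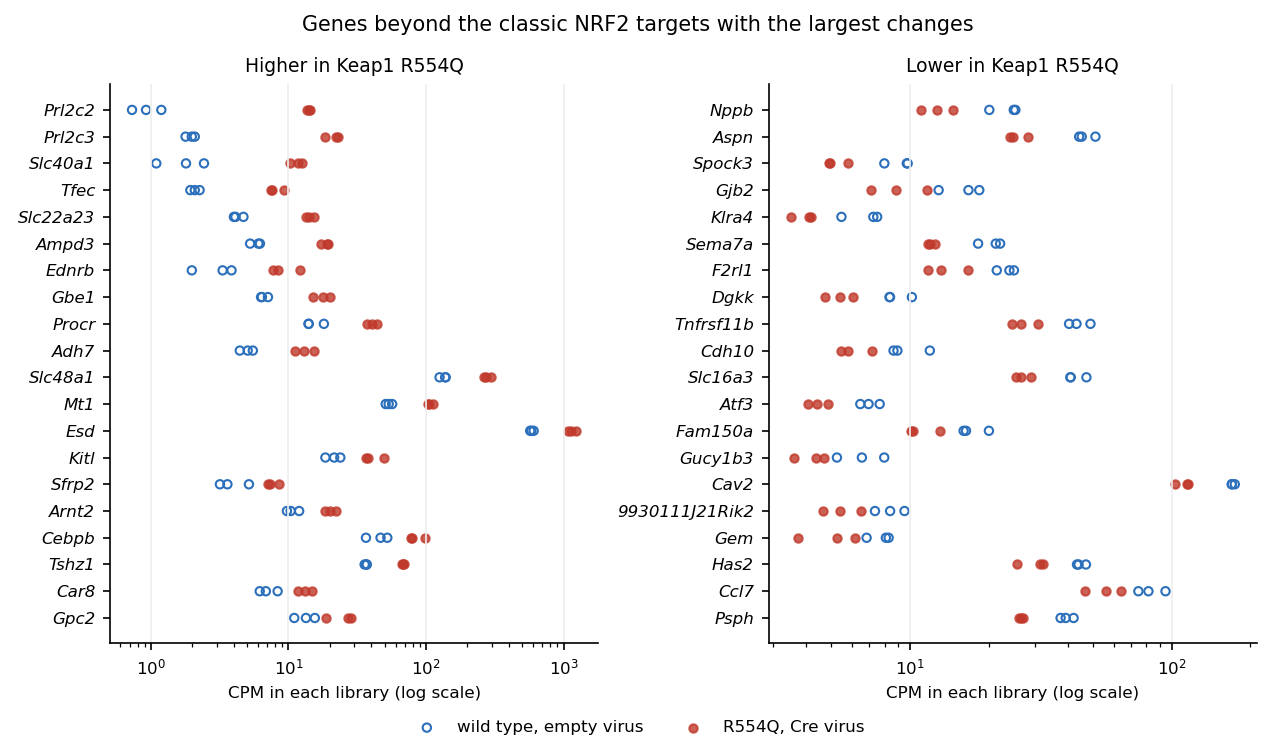
CPM in each library (log scale) of the 20 genes with the largest rises (left) and the 20 with the largest falls (right) beyond the classic NRF2 targets; filled red points are the 3 R554Q libraries and open blue points the 3 wild-type libraries. The groups do not overlap for any gene shown, because the genes were chosen that way; the rises span log2 fold changes of 0.89 to 3.87 and the falls -0.58 to -0.88.

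The falls were smaller than the rises. Nppb, which encodes the B-type natriuretic peptide and responds to stretch in muscle, was at 12.7, 14.5 and 11 CPM in R554Q and 24.9, 20.1 and 25.3 CPM in wild type. Every R554Q library lay below every wild-type library (log2 fold change -0.88, SE 0.12, adjusted p 0.000265). Aspn, which encodes asporin, a small leucine-rich proteoglycan, had 24.1, 24.8 and 28.2 CPM against 45.3, 51.1 and 44.3 CPM (log2 fold change -0.87, SE 0.09, adjusted p 1.1e-05), in part overlapping Cenpp on the opposite strand. It was the 1 called gene of 13 on the small leucine-rich proteoglycan list (7.69%, against 2.4% of all tested genes called lower). The median of that list was -0.17, moving to -0.094 with GC and length offsets and to -0.058 without R554Q replicate 2. The proteoglycan gene Spock3 had 4.96, 4.92 and 5.82 CPM against 7.98, 9.73 and 9.80 CPM (-0.81, SE 0.14, adjusted p 0.00292).

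Sema7a, F2rl1, Tnfrsf11b, Has2 and Cav2 were others of the 20 largest falls. Sema7a, a membrane-anchored semaphorin, had 12.4, 11.9 and 11.7 CPM in R554Q against 22.1, 18.2 and 21.3 CPM (log2 fold change -0.78, SE 0.11, adjusted p 0.00027). F2rl1, the protease-activated receptor 2, had 13.1, 11.7 and 16.6 CPM against 21.5, 24.96 and 23.98 CPM (-0.77, SE 0.12, adjusted p 0.00102). Tnfrsf11b, the secreted decoy receptor osteoprotegerin, had 26.5, 24.6 and 30.9 CPM against 43.3, 48.9 and 40.5 CPM (-0.70, SE 0.10, adjusted p 0.000446). Has2, a hyaluronan synthase, had 31.3, 25.7 and 32.2 CPM against 47.0, 44.1 and 43.5 CPM (-0.59, SE 0.10, adjusted p 0.00104), and the caveolar gene Cav2 had 103, 116 and 115 CPM against 170.0, 174 and 170 CPM (-0.62, SE 0.08, adjusted p 7.8e-05). All of them separated the groups without overlap, as did 13.5% of all tested genes in this direction. Plau, the urokinase activator of plasminogen, fell by 0.46 on the log2 scale (SE 0.08, adjusted p 0.00345), while its receptor gene Plaur had a log2 fold change of 0.35 and was called in 3 of the 6 fits. Of the 20 largest falls, Gjb2, Klra4, Dgkk, Cdh10, Atf3, Fam150a, Gucy1b3, 9930111J21Rik2, Gem and Ccl7 lost the call in 1 to 5 of those fits.

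Genes of the contractile apparatus and of serum response factor or YAP included 5 of 29 called lower (17.2% against 2.4% of all tested genes) and 0 higher: Nppb, Des, Ctgf, Tagln and Cnn1. Tagln, a smooth muscle actin-binding protein, was at 7537, 6438 and 6594 CPM in R554Q and 8929, 8377 and 8904 CPM in wild type (log2 fold change -0.35, SE 0.10, adjusted p 0.0394). Ctgf, a matricellular YAP target, had 656, 655 and 622 CPM against 832, 832 and 851 CPM (-0.38, SE 0.08, adjusted p 0.00916). The groups were apart in both genes, yet the calls were fragile: Tagln was called in 1, Cnn1 (-0.32) in 1, Des (-0.45) in 2 and Ctgf in 4 of the 6 fits with a library left out. The list held 1 lower gene without wild-type replicate 1, 9 without R554Q replicate 3, and 2 in each of the other 4 fits.

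Extracellular matrix genes moved in both directions. Of 62 tested genes of other matrix proteins 8 were called higher (12.9%, against 3.77% of all tested genes) and 5 lower (8.06%, against 2.4%), with a median of 0.02. With GC and length offsets 2 were called higher and 5 lower, and the median was -0.07. Nid1, a basement membrane linker, was at 842, 867 and 981 CPM in R554Q and 619, 640.2 and 693 CPM in wild type (log2 fold change 0.46, SE 0.09, adjusted p 0.0047), and Emilin1, an elastic fibre glycoprotein, rose by 0.49 (SE 0.09, adjusted p 0.00405). Agrn, which encodes agrin, was higher in all 6 fits too (0.39) but not with GC and length offsets (0.20, adjusted p 0.114), while Mfap2 (0.42) was called in 2. On the lower side stood Spock3, Has2, Efemp1 (-0.45), Postn (-0.42) and Loxl2 (-0.32), of which Efemp1, Postn and Loxl2 were called in 2, 2 and 1 fits. The count higher ran from 3 (without wild-type replicate 2) to 11, and the count lower from 2 to 17, both highest without R554Q replicate 3. Collagens gave 2 higher (Col5a3 at 0.42, Col18a1 at 0.39) and 1 lower (Col8a1 at -0.41) of 33 tested, 6.06% and 3.03%. These genes were called in 1, 3 and 2 of the fits. Without R554Q replicate 3 the counts were 6 and 3, and otherwise 0 or 1. With GC and length offsets they were 0 and 2. Of 41 matrix proteases and inhibitors 3 were higher and 3 lower, 7.32% each way. These were Plaur, Adamts7 (0.38) and Mmp11 (0.38) against Plau, Timp1 (-0.33) and Timp3 (-0.33). Plaur, Adamts7, Mmp11, Timp1 and Timp3 were called in 3, 1, 2, 1 and 1 fits. Without R554Q replicate 3 the counts were 5 and 7, and with GC and length offsets 1 and 2.

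Serine synthesis and one-carbon metabolism held 7 of 26 tested genes called lower, 26.9% against 2.4% of all tested genes, and 1 called higher. These enzymes make serine from a glycolytic intermediate and pass its carbon to folate. Psph, the last step of serine synthesis, was at 26.1, 26.5 and 27.1 CPM in R554Q and 39.4, 42.2 and 37.6 CPM in wild type (log2 fold change -0.58, SE 0.09, adjusted p 0.000543). Mthfd2, a mitochondrial folate enzyme, had 61.7, 56.4 and 59.2 CPM against 77.8, 80.9 and 77.1 CPM (-0.41, SE 0.08, adjusted p 0.0047). In both genes the R554Q libraries lay below all wild-type libraries and the call stood in all 6 fits with a library left out. The other 5 were Cth (-0.48), Psat1 (-0.45), Aldh1l2 (-0.44), Tyms (-0.38) and Gcsh (-0.31), which were called in 2, 4, 2, 5 and 1 fits. Aldh1l1, the cytosolic counterpart of Aldh1l2, went the other way, from 1.34, 1.19 and 1.77 CPM to 3.29, 3.46 and 3.73 CPM (log2 fold change 1.29, SE 0.23, adjusted p 0.00272). The number of lower genes was 3, 4 and 9 without R554Q replicates 1, 2 and 3 and 5, 2 and 5 without wild-type replicates 1, 2 and 3, and it was 6 with GC and length offsets.

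ATF4, a transcription factor induced by amino acid shortage and endoplasmic reticulum stress, drives many of those enzymes. On the list of its targets and of amino acid transporters, 7 of 32 tested genes were called lower (21.9%, against 2.4% of all tested genes) and 2 higher (6.25%, against 3.77%), with a median of -0.16. Atf4 itself was at 223, 200 and 207 CPM in R554Q and 259, 255 and 268 CPM in wild type (-0.31, SE 0.08, adjusted p 0.0244), without overlap, and was called in 1 of the 6 fits. Asns, asparagine synthetase, had 79.8, 72.7 and 88.5 CPM against 102, 114 and 105 CPM (-0.41, SE 0.09, adjusted p 0.0092) and was called in 4 fits. Nupr1, a stress-induced chromatin protein, had 67.0, 64.8 and 60.0 CPM against 87.5, 83.3 and 82.4 CPM (-0.40, SE 0.08, adjusted p 0.00623) and was called in every fit. Atf3, Ddit3, Cebpg and Slc7a1 were at -0.66, -0.34, -0.32 and -0.32 and called in 2, 2, 1 and 1 fits, and the 2 higher genes were Cebpb and Gdf15. The lower count was 1, 2 and 8 without R554Q replicates 1, 2 and 3 and 3, 2 and 2 without wild-type replicates 1, 2 and 3.

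The composite site of C/EBP and ATF factors, TGATGNAA, was searched in the same windows on both strands. It was held by 3 of 12 genes with a window among those lower on the serine or ATF4 lists (Atf3, Asns and Nupr1), by 3.69% of 244 genes called lower with a window and by 2.65% of all tested genes. The upstream stretch of Atf3 (chr1:191183406-191183505, minus strand) is shown as an example, with the reverse complement of the site in capitals. As for the antioxidant core, these are matches of letters. The list was built from known ATF4 targets, and the share among its members that were not called was not computed. The matches therefore cannot be tied to the falls.
Atf3: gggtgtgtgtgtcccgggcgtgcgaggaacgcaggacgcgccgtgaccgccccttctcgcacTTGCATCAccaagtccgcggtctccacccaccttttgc

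Of 33 tested genes for endoplasmic reticulum chaperones and the unfolded protein response, 3 were called lower (9.09%, against 2.4% of all tested genes) and 0 higher, with a median of -0.18. Hspa5, the chaperone BiP, was at 1027, 831 and 1172 CPM in R554Q and 1363, 1463 and 1395 CPM in wild type (log2 fold change -0.48, SE 0.11, adjusted p 0.0135); R554Q replicate 3 lay nearest to the wild-type libraries. Hspa5, Herpud1 (-0.34) and Manf (-0.33) were called in 3, 1 and 2 of the fits with a library left out. The lower count was 0, 2 and 18 without R554Q replicates 1, 2 and 3 and 1, 0 and 0 without wild-type replicates 1, 2 and 3, so the list's calls rested on which libraries were used, while its median stayed between -0.15 and -0.23. With all 6 libraries the lower count was 7 with DESeq2, 9 with no filter on low counts and 5 with GC and length offsets.

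**Figure D4:**
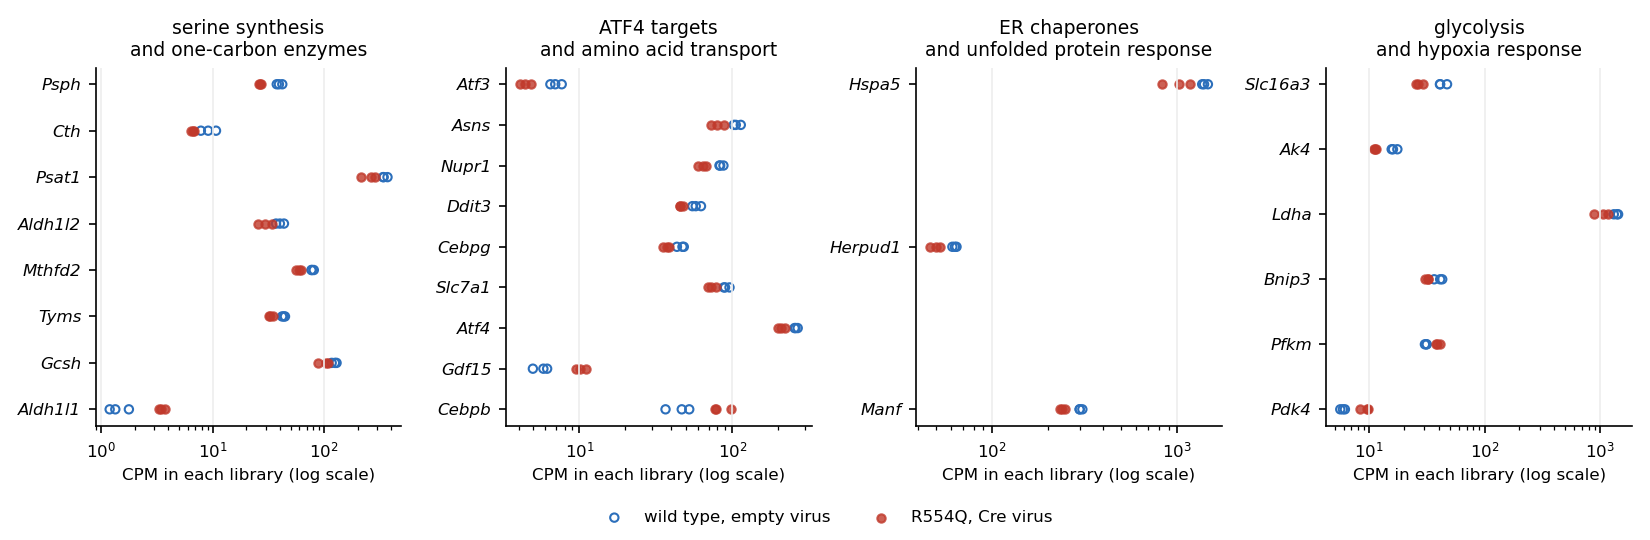
CPM in each library (log scale) of the called genes on 4 lists; filled red points are R554Q libraries and open blue points wild-type libraries. Enzymes of serine and one-carbon metabolism other than Aldh1l1, and genes of the ATF4 list other than Gdf15 and Cebpb, lie to the left of wild type in R554Q.

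Glycolysis and the hypoxia response had 4 of 44 tested genes called lower (9.09%, against 2.4% of all tested genes) and 2 higher (4.55%, against 3.77%). Slc16a3, the lactate exporter MCT4, was at 26.5, 25.4 and 29.1 CPM in R554Q and 41.0, 41.1 and 47.2 CPM in wild type (log2 fold change -0.68, SE 0.09, adjusted p 0.000214). Ak4, a mitochondrial adenylate kinase, fell by 0.55 on the log2 scale (SE 0.11, adjusted p 0.00504). Ldha, lactate dehydrogenase A, stood at 1057, 889 and 1178 CPM against 1316, 1402 and 1434 CPM (-0.41, SE 0.10, adjusted p 0.0219), and was called, like Bnip3 (-0.35), in 2 fits. The higher genes were Pdk4, a kinase that inhibits pyruvate dehydrogenase (0.65, SE 0.13, adjusted p 0.00851, called in 5 fits), and Pfkm (0.33, called in 2 fits; Senp1 overlaps it). The lower count was 2 or 3 in 5 of the fits with a library left out and 13 without R554Q replicate 3.

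On the peroxisome and fatty acid oxidation list 5 of 39 tested genes were called higher (12.8%, against 3.77% of all tested genes) and 0 lower. Ppard, a nuclear receptor that drives fatty acid oxidation, was at 72.0, 73.3 and 73.1 CPM in R554Q and 49.9, 47.1 and 53.4 CPM in wild type (0.54, SE 0.08, adjusted p 0.000531), and was the one member called in all 6 fits. Acox3, Pex6, Abcd4 and Cpt1c were at 0.38, 0.42, 0.46 and 0.45 and called in 2, 3, 3 and 4. The count higher was 1 without R554Q replicate 1, 2 without wild-type replicate 2 and 3 to 5 otherwise. On the list of adipocyte and lipid storage genes Lpin1 (0.50) and Pdgfra (0.36) were higher and Fabp5 (-0.32) lower of 29 tested, called in 3, 2 and 2 fits. These shares, 6.9% and 3.45%, stand beside 3.77% and 2.4% of all tested genes. The sterol and fatty acid synthesis list had Idi1 (-0.44) and Sc5d (-0.34) lower of 38 (5.26%), called in 3 and 1 fits. Without R554Q replicate 3 the adipocyte list held 6 higher and 1 lower and the sterol list 2 higher and 7 lower, and with GC and length offsets the sterol list held 0 of each.

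Growth factor genes were mixed, with 6.25% called higher and 8.33% lower against 3.77% and 2.4% of all tested genes: of 48 tested on the list of the IGF axis and other growth factors, Kitl, Igfbp2 (0.36) and Pdgfra were higher, and Angptl4 (-0.51), Pdgfd (-0.45), Ereg (-0.39) and Hbegf (-0.38) lower. The EGF receptor ligands Ereg and Hbegf were called in 4 and 3 of the 6 fits, and Igfbp2, Pdgfra, Angptl4 and Pdgfd in 2, 2, 2 and 4. Chemokines and cytokines gave 3 higher and 3 lower of 35 tested, 8.57% each way. Ccl7, a monocyte attractant, had 46.6, 64.2 and 56.3 CPM in R554Q against 81.5, 94.7 and 74.6 CPM in wild type (-0.59, SE 0.11, adjusted p 0.0042, called in 5 fits). Ccl20 (-1.51) and Tslp (-1.18) were scarce, below 2 CPM in every library, and were called in 2 and 1 fits; Clcf1 (0.63), Cxcl5 (0.51) and Ptges (0.35) were higher and called in 5, 4 and 2. Without R554Q replicate 3 the growth factor list held 3 higher and 6 lower genes and the chemokine list 3 and 6; without R554Q replicate 1 they held 1 and 1, and 1 and 0. Of 10 tested connexins and pannexins Panx1 (0.39) was higher and Gjb2 (-0.80) lower (10.0% each way), called in 2 and 4 fits.

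The remaining lists follow, where 3.77% of all tested genes were called higher and 2.4% lower. The share called lower was 2.63% for the respiratory list, 5.0% for tRNA synthetases, 4.17% for replication and 2.5% for antioxidant enzymes. Heat shock proteins had 2.86% called higher. Proteasome genes had 2.17%, purine and pyrimidine genes 3.85%, and lysosome and autophagy genes 5.63% in each direction. Of 76 respiratory chain and ATP synthase genes 0 were higher and 2 lower (Sdhd at -0.29 and Uqcrc2 at -0.35), with a median of -0.11. With GC and length offsets 0 of that list were lower and its median was -0.051. Of 46 proteasome genes Psmd3 (0.28) was higher and Psmd14 (-0.32) lower. Lysosome and autophagy genes gave 4 higher (Gaa, Calcoco1, Ulk1 and Tfe3, from 0.28 to 0.41) and 4 lower (Ctsc, Asah1, Atg12 and Atg5, from -0.35 to -0.49) of 71. Heat shock proteins gave 1 higher (Bag3 at 0.30) of 35, cytosolic tRNA synthetases 1 lower (Dars at -0.36) of 20, replication and mitosis 2 lower (Cdk1 at -0.34 and Ccne2 at -0.44) of 48, and NADPH oxidases and other antioxidant enzymes 1 lower (Txnip at -0.29) of 40. Purine and pyrimidine synthesis gave 1 of 26 in each direction: Adssl1 (0.73, called in 5 fits) and Hprt, the purine salvage enzyme (-0.42, SE 0.08, adjusted p 0.00408), which lost the call with GC and length offsets (-0.17, adjusted p 0.114). Apart from Hprt, none of the genes named on these lists was called in all 6 fits. Without R554Q replicate 3 the lysosome and autophagy list held 6 higher and 10 lower genes, and in the other fits with a library left out 0 to 2 of each. The respiratory, proteasome, tRNA synthetase, replication and antioxidant lists held 5, 5, 6, 8 and 6 lower genes without R554Q replicate 3 and 0 or 1 in the others, and the heat shock list held 8 and 0. The purine and pyrimidine list held 3 higher and 7 lower without R554Q replicate 3. In that fit the small leucine-rich proteoglycan list held 2 higher and 3 lower, the cytochrome P450 list 3 higher and 2 lower, the list of NRF2 regulators 3 higher and 0 lower, and the connexin list 1 higher and 2 lower. Part of Ppox, Ddit3, Ccne2, Col18a1, Aldh16a1, Adamts7, Manf and Csf1r also overlaps another gene, so their counts could include its reads.

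**Figure D5:**
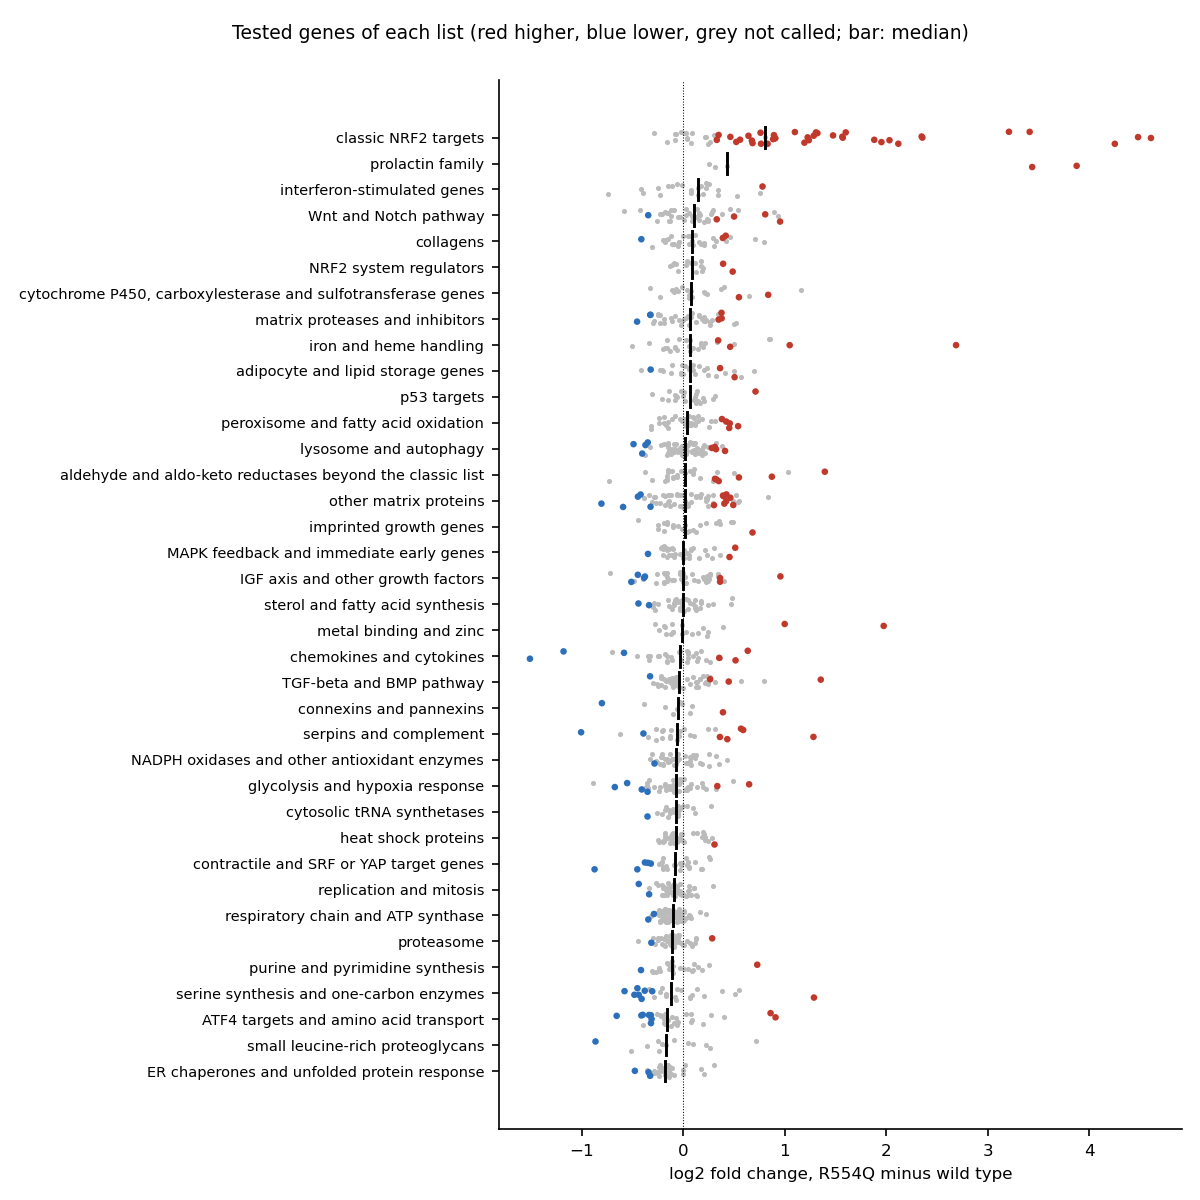
Log2 fold change (R554Q minus wild type) of each tested gene, by list, with lists ordered by their median (black bar); red and blue points are genes called higher and lower, and grey points were not called. The classic NRF2 targets stand at a median of 0.80 and the 5 tested prolactin-family genes at 0.43 (0.286 to 1.24 with 1 library left out), while the other 35 lists have medians between -0.18 and 0.15.

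Markers of other cell types were read beside these groups. On the macrophage list 15 genes were tested, with 1 called lower, 0 higher and a median of -0.25. The summed level of the list was 89.8 to 107 CPM in R554Q and 121 to 133 CPM in wild type, with Lyz2, a lysozyme gene, as its most abundant member, at 51.8, 42.1 and 47.0 CPM against 65.3, 73.9 and 64.2 CPM (-0.53, SE 0.09, adjusted p 0.0023). Csf1r, the receptor that macrophages need, overlapped between the groups, at 7.22, 6.56 and 7.95 CPM against 6.46, 6.998 and 7.87 CPM. The part of the Lyz2 difference in the lower chemokine and lysosomal genes was not tested, and fewer cells of a type and less RNA per cell cannot be told apart in bulk RNA. The smooth muscle and pericyte list summed to 903 to 961 CPM in R554Q and 1025 to 1092 CPM in wild type, with Notch3 higher and Cnn1 lower of 9 tested, beside the lower contractile genes. The skeletal muscle list, with 3 of 13 genes tested, summed to 273 to 311 CPM against 311 to 344 CPM, and 0 were called. The epithelial list summed to 48.1 to 56.6 CPM against 58.5 to 66.9 CPM, mostly from Krt19, with Cldn4 called higher (1.76, SE 0.31, adjusted p 0.00237) from a level under 1 CPM in wild type. Fibroblast markers summed to 16200 to 17290 CPM against 16700 to 18800 CPM, with 1 gene called in each direction. Endothelial, neural and glial, and chondrocyte and bone markers had 0 called of 6, 8 and 5 tested and overlapping sums, and 0 erythroid markers had enough reads to test.

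Base composition differed between the called genes. The median GC content of the longest transcript was 56.4% for genes called higher beyond the classic list, 44.3% for genes called lower and 49.8% for all tested genes. Deviations of single libraries from their group's mean followed GC content across genes, with Pearson r of -0.357 to 0.28, as a description of these libraries. With GC and length offsets in each library, 305 genes were called higher and 207 lower; 226 of the 496 higher genes beyond the classic list and 135 of the 339 lower genes were among them. Of the genes called in all 6 fits with a library left out, 113 of 122 and 23 of 27 were also called with the offsets. Collagen genes Col5a3 and Col18a1 lost the call, at 0.13 each, as did Agrn among the higher genes and Hprt, Snx7 (adjusted p 0.0968), Itm2a (adjusted p 0.097) and Tnmd (adjusted p 0.0853) among the lower. The counts of higher genes fell from 6 to 3 on the aldehyde and aldo-keto reductase list and from 5 to 3 on the peroxisome list, and the lysosome and autophagy list went from 4 higher and 4 lower to 1 and 0.

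The genes that changed with R554Q were then followed in the fibroblasts with Nrf2 D29H, an activating change in NRF2 itself, against those labelled Nrf2 KO. The 2 experiments share no library, and reads of Nfe2l2 were counted in the libraries labelled KO too, at 46.5, 40.2 and 41.2 CPM against 49.6, 57.1 and 52.5 CPM in D29H. Of the 122 genes beyond the classic list that were higher in all 6 fits, 117 were tested there and 55 were called higher (47.0%, against 3.47% of all genes tested in that experiment); 110 had the same sign and 0 were called lower. Of the 27 lower genes, 8 were called lower there (29.6%, against 1.28%), 24 had the same sign and 0 were called higher. Both experiments set Cre virus against empty virus, so an effect of Cre common to both and one of the alleles cannot be told apart. Slc40a1 and Tfec had log2 fold changes of 2.99 and 2.43 in D29H, beside 2.69 and 1.95 in R554Q, and Slc48a1 had 1.04 beside 1.05. Adh7 and Sfrp2 had 0.13 and -0.27 in D29H (adjusted p 0.684 and 0.302), beside 1.39 and 0.95 in R554Q. The difference itself had an adjusted p of 0.0557 for Adh7 and 0.0918 for Sfrp2 in 1 fit of all 12 libraries, so neither is shown to differ between the alleles. Over 14794 genes, 4 differed past the threshold (0.027%; 1668 at an unadjusted p under 0.05), all of them classic targets.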

How the data were processed

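Raw read counts of each library were deposited by the authors, with FPKM beside them, per the file headers; counts entered every test and FPKM none. The submitters' processing notes name STAR, DESeq2 and mm10; the counter, annotation and use of strand are not given in the sources used here, so reads of overlapping or near-identical genes cannot be assigned with certainty. The main test used edgeR 4.0.16 in R 4.3.3: filterByExpr, TMM factors, glmQLFit and glmQLFTest on the 6 Keap1 libraries, with Benjamini-Hochberg adjusted p under 0.05 as the call. The SE was obtained as the log2 fold change over the root of the F statistic. The difference between alleles was fitted on all 12 libraries. Alternatives were RLE and upper-quartile factors, DESeq2 1.42.0, no filter, a minimum mean of 50 counts, limma-trend (limma 3.58.1), all 12 libraries in 1 fit, a replicate block, GC content and length offsets (lowess span 0.3; GC known for 99.5% of tested genes), each library left out, and a threshold of 0.01. Scripts were tested on simulated data. The 37 gene lists and 9 marker lists, and the comparison, were chosen with earlier results of these data known. Named genes were Keap1, Nfe2l2 and Nqo1; the 20 largest rises and falls beyond the classic list among called genes that code for protein, average 100 reads or more and do not overlap between groups; on each list all called genes up to 6, otherwise the 4 largest in each direction; and up to 5 per direction for the difference test. Nqo1 was at 362, 299 and 371 CPM in R554Q and 32.1, 32.4 and 32.5 CPM in wild type. Named genes outside this rule were chosen after their values were seen. Promoter windows are RefSeq's, GRCm38.p6, and only stretches outside GENCODE M21 exons of the gene are printed.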

Additional observations from a re-analysis of the deposited data

Results flagged for a closer look

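The test of the R554Q effect minus the D29H effect, in 1 edgeR fit of all 12 libraries, passed the adjusted threshold for 4 genes, and each is given as a value with no explanation. Slc7a11, the cystine transporter gene, rose more in R554Q by 1.69 on the log2 scale (SE 0.30, adjusted p 0.0436). It was at 16.7, 16.2 and 21.7 CPM against 2.84, 4.05 and 3.91 CPM in the Keap1 groups and 9.85, 10.8 and 9.90 CPM against 5.07, 4.82 and 10.2 CPM in the Nrf2 groups. Abcc4, an efflux pump gene, differed by 1.01 (SE 0.17, adjusted p 0.0436) and Srxn1, sulfiredoxin, by 0.69 (SE 0.11, adjusted p 0.0402), both larger in R554Q. Mgst1, a microsomal glutathione transferase, differed by -0.82 (SE 0.15, adjusted p 0.0436), the smaller effect being in R554Q. Its level was 50.5, 54.1 and 49.65 CPM in R554Q against 20.3, 21.9 and 21.3 CPM in wild type. In the Nrf2 groups it was 33.4, 34.4 and 35.3 CPM in D29H against 8.84, 8.55 and 6.34 CPM in Nrf2 KO. With each of the 12 libraries left out in turn, Srxn1 was called in 5, Abcc4 in 4, Slc7a11 in 5 and Mgst1 in 3 of the fits, with highest adjusted p of 0.192, 0.207, 0.207 and 0.207. The experiments were counted into separate tables and had unlike controls, Keap1 wild type and Nrf2 KO. A difference between the experiments, one between the controls and one between the alleles cannot be told apart.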

How the results depend on the processing

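The counts of 533 higher and 339 lower genes became 825 and 677 with no filter on low counts, 327 and 157 with a replicate block, 305 and 206 with a replicate block and offsets for GC content and length, 305 and 207 with those offsets alone, and 191 and 51 at an adjusted p under 0.01. With 1 library left out they ran from 186 to 1530 and from 48 to 1342; the other settings stayed within 1.5 times. The labels do not say whether replicate numbers pair samples. Deviations of same-numbered libraries correlated at 0.0398, -0.215 and -0.0442, which with 3 libraries per group neither shows nor excludes a pairing. The count of genes differing between experiments, 4, became 1 with upper-quartile factors or a mean count of at least 50, 32 with no filter, 71 with DESeq2, 0 with a replicate block, and 0 to 26 with 1 library left out. Of 155 named genes that were called, 60 kept the call in every alternative and 0 changed sign. Keap1, not called at 0.03, was at -0.16 with the block and offsets, -0.17 with offsets alone, and ran from -0.035 without wild-type replicate 2 to 0.096 without R554Q replicate 3, with -0.017 without R554Q replicate 2. Nfe2l2, not called at -0.07, was at 0.0032 with offsets and ran from -0.17 without R554Q replicate 3 to 0.046 without R554Q replicate 2. The causes of these shifts were not tested. With 3 libraries per group, small changes of scarce genes are near the limit of detection.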

Other observations

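Genes beyond every list also changed in all 6 fits with a library left out, and a few are named here after their values were seen. Artn, a ligand of the GDNF family, was at 6.63, 8.11 and 6.35 CPM in R554Q and 2.54, 1.89 and 2.35 CPM in wild type (log2 fold change 1.64, SE 0.18, adjusted p 1.6e-05). On the lower side, Tm4sf1, a tetraspan membrane protein gene, had 506, 429 and 483 CPM against 683, 686 and 661 CPM (-0.52, SE 0.08, adjusted p 0.00124), and C1qtnf3, a secreted C1q-like protein gene, 171, 164 and 178 CPM against 228, 254 and 235 CPM (-0.48, SE 0.08, adjusted p 0.00132). Mgp, an inhibitor of calcification, fell by 0.42 (SE 0.08, adjusted p 0.0042) and Eno3, the muscle enolase gene, by 0.45 (SE 0.08, adjusted p 0.00247), on the log2 scale.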
